A study of Oryza sativa with 3 samples.

Results

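The pericentromeric flanks of rice chromosomes, the sequence on either side of the centromere cores, were described from MNase-seq data of leaf tissue of Nipponbare seedlings. The flanks were defined by position alone, as 0.5 to 3 Mb on either side of the centromere midpoint, and no measured value entered their bounds. The midpoints lay at 16.7 Mb on chromosome 1, 13.6 Mb on chromosome 2, 19.4 Mb on chromosome 3, 12.4 Mb on chromosome 5, 15.3 Mb on chromosome 6, 12.1 Mb on chromosome 7, 12.9 Mb on chromosome 8, 2.8 Mb on chromosome 9, 12 Mb on chromosome 11 and 11.9 Mb on chromosome 12 (TIGR release 5). Chromosomes 4 and 10 were left out. The flanks covered 49.8 Mb, or 13.4% of the genome, and held 473431 of 3456855 nucleosome calls and 3265324 of 26516807 single-end reads. Each chromosome had a left and a right flank, and the left flank of chromosome 9 was shortened by the end of the chromosome. The flanks were compared with all sequence more than 5 Mb from the midpoint on the same chromosomes (distal regions), which covered 216 Mb and held 1985228 calls and 16072927 reads.

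All samples were of the same cultivar and tissue, and MNase was the only treatment. Micrococcal nuclease (MNase) digests the linkers that join neighbouring nucleosomes, and the 5' ends of reads from mono-nucleosomal DNA therefore mark nucleosome edges. Replicate 1 was sequenced as single-end reads in 2 technical replicates, whose read positions were deposited together. Replicate 2 was paired-end, and its nucleosomes were called by the authors with nucleR. Reads and calls below are thus from different experiments with 1 library of each form. There was no replicate error. Errors are the SD over 10 chromosomes unless another is named.

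Pericentromeric sequence in plants is known to be poor in genes and rich in transposable elements, and to be packed into heterochromatin with dense DNA methylation and methylated lysine 9 on histone H3. Crossovers are rare there. The centromere core between the flanks differs from them in that many of its nucleosomes carry the histone variant CENH3, in rice often on the satellite repeat CentO. Genes and repeats were not placed here, because the gene table at hand was of another genome build.

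Compared with the distal regions, the flanks had fewer single-end reads and more nucleosome calls per kb. More of their calls overlapped the next call and fewer reached the highest scores. The reads of replicate 1 were less concentrated on the calls of replicate 2. The distance from one nucleosome to the next and the unsmoothed protected length did not differ past the threshold with the zones as defined. When smoothed over 11 bp, the protected length was 0.9 bp longer in the flanks, which was past the threshold. In all, 15 measures were compared by a two-sided exact sign-flip permutation test of the mean difference over the 10 chromosomes, with p-values adjusted over the 15 by the Benjamini-Hochberg method and a threshold of 0.05. The smallest p this test can give is 0.00195. Chromosomes of 1 library are not separate plants, so these p-values weigh a difference only against its spread over chromosomes.

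**Figure D1:**
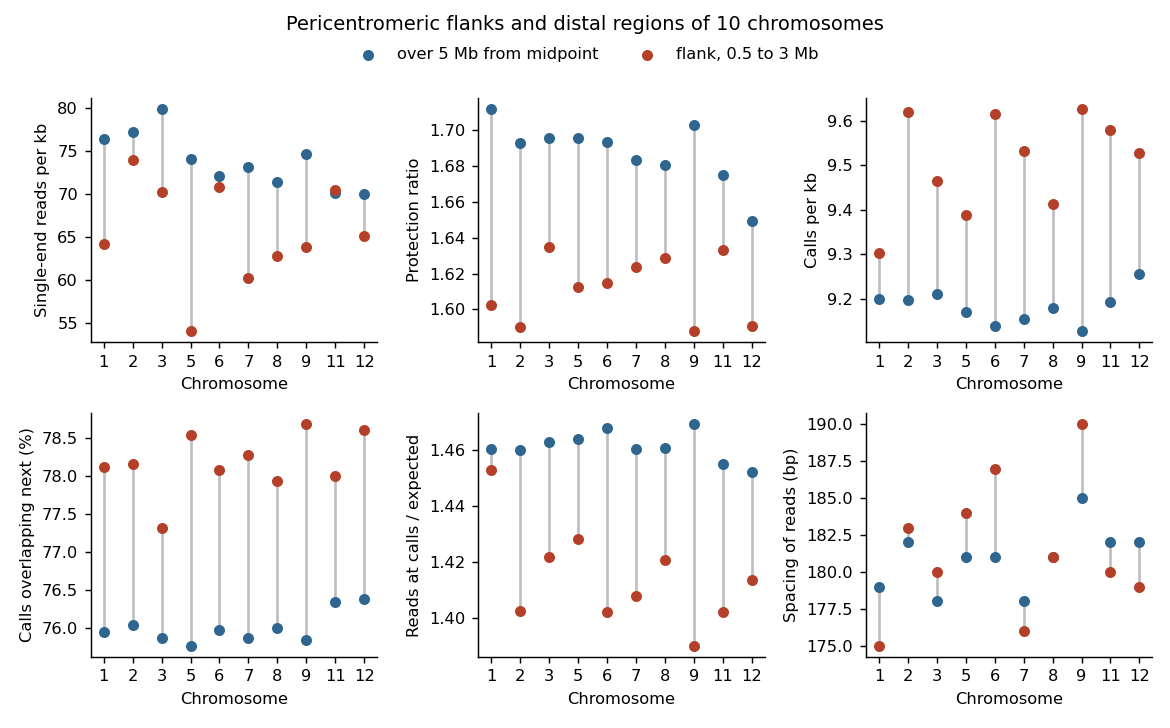
Flanks (red) and distal regions (blue) of each of 10 chromosomes, 1 point each, joined by a grey line, for 6 measures on axes that do not start at 0. Calls per kb and the share of overlapping calls were higher in the flank on 10 of 10 chromosomes, whereas read density was lower on 9 of 10.

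Read density was lower in the flanks on 9 of 10 chromosomes. The flanks held 65.6 ± 5.93 reads per kb and the distal regions 73.9 ± 3.21 (SD, n = 10 chromosomes), a mean ratio of 0.885 (log2 ratio -0.18 ± 0.137, exact permutation p = 0.00391, adjusted p = 0.00837). On single chromosomes the flanks had 64.2 reads per kb on chromosome 1, 74.0 on chromosome 2, 70.2 on chromosome 3, 54.1 on chromosome 5, 70.8 on chromosome 6, 60.3 on chromosome 7, 62.8 on chromosome 8, 63.8 on chromosome 9, 70.4 on chromosome 11 and 65.1 on chromosome 12. The distal regions lay between 70.03 on chromosome 12 and 79.8 on chromosome 3, so that 4 flanks overlapped their range. Chromosome 5 had the largest difference, with 74.0 reads per kb in its distal region. Chromosome 11 went the other way by less than 1 read per kb (70.4 against 70.1).

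The flanks had more bins with few reads and fewer bins with many. Of 4980 flank bins of 10 kb, 871 (17.5%) had under 0.5 times the median of all bins of the genome, which was 738 reads. This share was 9.96% of the distal bins and 12.9% of all bins. More than 1.5 times the median was reached by 232 flank bins (4.66%), against 7.33% of distal bins and 6.47% of all bins. The median bin itself held 676 reads in the flanks and 767 in the distal regions. Differences in read density can reflect how much of the sequence allows a unique alignment as well as nucleosome occupancy, and these cannot be told apart here.

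Windows of 1 kb without any read were spread unevenly. They made up 2.95% ± 2.46 of the flanks and 2.00% ± 0.573 of the distal regions, a difference of 0.948 percentage points that ran from -2.01 on chromosome 6 to 5.97 on chromosome 1 (exact permutation p = 0.311, adjusted p = 0.466). The flanks of chromosomes 1, 5 and 8 had the most, with 7.38%, 6.60% and 4.38%, and that of chromosome 3 had the fewest, with 0.8%. Windows without the centre of a call made up 0.715% ± 0.468 of the flanks and 0.502% ± 0.0842 of the distal regions (exact permutation p = 0.219, adjusted p = 0.365). The share was highest on chromosome 1, at 1.88% in the flanks and 0.429% in the distal region.

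Repeated reads, counted as the reads beyond the first at each position and strand, made up the same share of both zones within the spread over chromosomes. The share was 14.5% ± 0.123 in the flanks and 14.4% ± 0.115 in the distal regions (exact permutation p = 0.762, adjusted p = 0.762). Counting each position and strand once left the log2 ratio of read density at -0.18. Among bins with 0.8 to 1.2 times the median reads, a setting chosen after seeing the data, repeated reads were 14.1% in the flanks and 13.8% in the distal regions and higher in the flank on 10 of 10 chromosomes (exact permutation p = 0.00195, adjusted p = 0.00419).

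Nucleosome calls were denser in the flanks on each of the 10 chromosomes. The flanks had 9.51 ± 0.111 calls per kb and the distal regions 9.18 ± 0.0375, a ratio of 1.04 (log2 ratio 0.05 ± 0.0195, exact permutation p = 0.00195, adjusted p = 0.00586). The flanks ran from 9.30 calls per kb on chromosome 1 to 9.63 on chromosome 9. All 10 distal regions lay lower, between 9.13 on chromosome 9 and 9.26 on chromosome 12, so the zones did not overlap. Chromosome 1 had the smallest difference, 9.30 against 9.20, and its left and right flanks were the lowest and the highest of all flanks, with 8.77 and 9.83 calls per kb. With the left flanks alone, the log2 ratio was 0.04 and no longer past the threshold (exact permutation p = 0.0234, adjusted p = 0.0586).

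Flanks and distal regions were also compared among bins with like numbers of reads, which was decided after the lower read density had been seen. Among bins with 0.8 to 1.2 times the median, the flanks had 9.51 calls per kb and the distal regions 8.97, as means over chromosomes (log2 ratio 0.09, higher on 10 of 10, exact permutation p = 0.00195, adjusted p = 0.00419). With the bins of all chromosomes pooled, flank bins under 0.5 times the median had 8.85 ± 1.71 calls per kb and distal bins 8.74 ± 1.54 (SD over bins). From 0.5 to 0.8 times the median these values were 9.26 ± 1.29 and 8.62 ± 1.32, and from 1.5 times upward 10.8 ± 0.815 and 10.5 ± 0.784. The flank mean was thus higher at each level of reads. The depth of the read pairs from which the calls were made was not measured here.

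**Figure D2:**
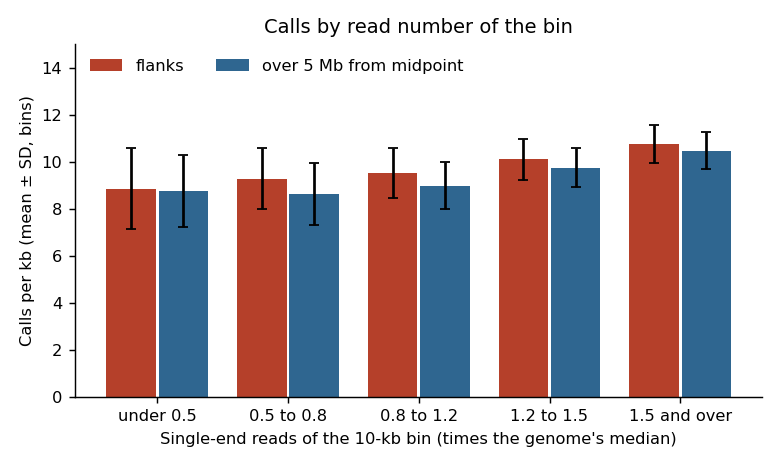
Calls per kb (mean and SD over 10-kb bins) in flanks (red) and distal regions (blue), by the number of single-end reads of the bin relative to the median of all bins in the genome. The flank mean was above the distal mean in each of the 5 classes, from 8.85 against 8.74 in the lowest to 10.8 against 10.5 in the highest, and in each the SD over bins was larger than the difference.

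Calls that overlap one another were more frequent in the flanks. Each call ends 120 bp above its start, and 78.2% ± 0.398 of flank calls overlapped the next call, against 76.0% ± 0.205 of distal calls. The difference was 2.16 ± 0.436 percentage points, from 1.45 on chromosome 3 to 2.84 on chromosome 9 (higher on 10 of 10, exact permutation p = 0.00195, adjusted p = 0.00586). The lowest flank, 77.3% on chromosome 3, was above the highest distal region, 76.4% on chromosome 12. The centres of adjacent calls were a median 81 bp apart in the flanks and 83 bp in the distal regions. Distances under 80 bp made up 48.7% of the flank distances and 47.4% of the distal ones, whereas 140 to 230 bp, the range of regular nucleosome spacing, made up 12.99% and 14.2%.

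Calls that overlapped no other call had the opposite pattern. These are the calls left once all overlapping ones are removed, so their number is not separate from the higher overlap above. The flanks had 0.707 of them per kb and the distal regions 0.804, lower in the flank on 10 of 10 chromosomes (log2 ratio -0.19, exact permutation p = 0.00195, adjusted p = 0.00586). Windows of 1 kb without such a call made up 56.3% of the flanks and 51.8% of the distal regions. The higher density of calls in the flanks therefore did not hold for calls that stand alone. Among the better-scoring 50% of all calls, 38.1% overlapped the next in the flanks and 37.8% in the distal regions, a difference that was not past the threshold (exact permutation p = 0.318, adjusted p = 0.531). The density of these calls was 4.64 per kb in the flanks and 4.55 in the distal regions (log2 ratio 0.03, exact permutation p = 0.0254, adjusted p = 0.0544).

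The score that nucleR gave a call lay between 0 and 1, on a scale the sources used here do not define. The median score was 0.469 ± 0.0153 in the flanks and 0.471 ± 0.0143 in the distal regions (exact permutation p = 0.0312, adjusted p = 0.0586). The difference passed the threshold under 4 other settings of zones, bins or calls, among them distal regions over 8 Mb (-0.00583, exact permutation p = 0.00195, adjusted p = 0.00488). At the upper end the zones differed. Calls at or above 0.700, the 90th percentile of all calls and below called top calls, were 8.53% ± 3.99 of flank calls and 9.74% ± 4.54 of distal calls. Their share was lower in the flank on 9 of 10 chromosomes (mean difference -1.20 percentage points, exact permutation p = 0.00391, adjusted p = 0.00837). It was 14.1% in the flank and 16.2% in the distal region of chromosome 5, 2.91% and 3.51% on chromosome 2, and 0.608% and 0.537% on chromosome 9, the exception.

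Scores differed more between chromosomes than between zones. Over whole chromosomes top calls made up 0.578% of the calls on chromosome 9, 3.41% on chromosome 2 and 15.6% on chromosome 5. The deposited scores are therefore hard to compare across chromosomes, and in the tests each flank was compared only with its own chromosome. The pooled profile and the runs of top calls below used the same threshold of 0.700 on all chromosomes. Chromosomes with more top calls weigh more in them. With the 90th percentile taken within each chromosome, which was chosen after seeing the data, top calls were 9.03% of flank calls and 10.4% of distal calls and lower in the flank on 10 of 10 chromosomes (exact permutation p = 0.00195, adjusted p = 0.00488).

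Reads of replicate 1 were less concentrated on the calls of replicate 2 in the flanks. The centre of a read was placed 73 bp inside its 5' end, and centres at most 20 bp from that of a call were counted. A flank call had 3.80 ± 3.99 such reads and a distal call 4.46 ± 4.31 (SD over calls), and none was found at 22.6% of flank calls and 16.7% of distal calls. Divided by the number that the read density of the zone gives, the reads at calls were 1.41 ± 0.0177 in the flanks and 1.46 ± 0.00521 in the distal regions. This ratio was lower in the flank on 10 of 10 chromosomes (exact permutation p = 0.00195, adjusted p = 0.00586). It ran from 1.39 on chromosome 9 to 1.45 on chromosome 1 in the flanks. The left flank of chromosome 1, in which 13.5% of windows had no read, had the highest ratio of all flanks, 1.54, and its right flank the lowest, 1.37. With the left flanks alone the difference was -0.0354 and not past the threshold (exact permutation p = 0.041, adjusted p = 0.0879). Among bins with 0.8 to 1.2 times the median reads the ratios were 1.402 and 1.477.

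The length of DNA that a nucleosome protects was read from the distances between forward and reverse 5' ends. The most frequent distance was 148.4 ± 0.966 bp in the flanks and 148.1 ± 0.316 bp in the distal regions (exact permutation p = 0.75, adjusted p = 0.762). It was 151 bp in the flank of chromosome 7, 149 bp in that of chromosome 3 and 148 bp in the other flanks. With all chromosomes pooled, both zones had the maximum at 148 bp, preceded by smaller maxima at 97, 108, 129 and 139 bp in both, and at 117 bp in the flanks and 118 bp in the distal regions. When the distances were smoothed over 11 bp the maxima were at 150.9 and 150 bp, a difference of 0.9 bp that was past the threshold (exact permutation p = 0.00781, adjusted p = 0.0146).

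The height of that maximum did differ. Pairs within 5 bp of 148 bp were 1.61 ± 0.0181 times as frequent as the mean pair at 400 to 900 bp in the flanks, and 1.69 ± 0.0173 times in the distal regions. This protection ratio was lower in the flank on 10 of 10 chromosomes, by -0.0760 in the mean (exact permutation p = 0.00195, adjusted p = 0.00586). Flank values ran from 1.59 on chromosome 9 to 1.63 on chromosome 3, and distal values from 1.65 on chromosome 12 to 1.71 on chromosome 1. There was no overlap between these values of whole zones, but the ratio rose gradually with distance from the midpoint (below). Among bins with 0.8 to 1.2 times the median reads the ratios were 1.71 and 1.82, lower in the flank on 10 of 10.

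Spacing between neighbouring nucleosomes was read from distances on the same strand. The spacing of reads was 181.5 ± 4.65 bp in the flanks and 180.9 ± 2.13 bp in the distal regions, a difference of 0.6 bp that ran from -4 bp (chromosome 1) to 6 bp (chromosome 6) (exact permutation p = 0.648, adjusted p = 0.748). Single flanks had 175 bp on chromosome 1 and 190 bp on chromosome 9. Adjacent top calls 120 to 250 bp apart gave a median of 178.05 ± 6.10 bp in the flanks and 179.4 ± 2.41 bp in the distal regions (exact permutation p = 0.5, adjusted p = 0.625). With midpoints 0.5 Mb to the left the difference was -2.8 bp and past the threshold (exact permutation p = 0.0234, adjusted p = 0.0439). On 9 chromosomes the flank value lay between 178 and 181.5 bp, and on chromosome 9 it was 161 bp, against 174 bp in its distal region.

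Further maxima of the same-strand distances were found in both zones. The search covered a limited distance and kept only the first 4, so it cannot show in which zone they reach farther. With chromosomes pooled they stood at 181, 377, 567 and 757 bp in the flanks and at 181, 371, 572 and 775 bp in the distal regions. The drop from each maximum to the following minimum was then taken at fixed distances, chosen after these curves were seen, and is given with no test. It was 18.4% ± 0.866 of the mean in the flanks and 19.6% ± 0.563 in the distal regions for the first maximum, lower in the flank on 10 of 10 chromosomes. For the next it was 10.04% ± 0.494 and 9.81% ± 0.597, higher in the flank on 6 of 10. At the last one measured it was 6.31% ± 0.561 and 5.56% ± 0.586, higher in the flank on 8 of 10.

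Read centres around top calls showed regularly placed neighbours in both zones. The profile over all top calls was at 145% of its mean at 175 bp in the flanks and at 146% in the distal regions. The next neighbour, at 375 bp, was at 119.9% in the flanks and 116.9% in the distal regions. The swing between the trough and the first neighbour, as a percent of the profile's mean, was 60.8% ± 11.4 in the flanks and 63.2% ± 17.7 in the distal regions (exact permutation p = 0.426, adjusted p = 0.581). Chromosome 9, with few top calls, had the widest swing in both zones, 87.1% and 109%. Without the first 50 kb of that chromosome the means were 66.7% and 63.2%, and without the whole chromosome the mean difference was -0.226 percentage points.

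**Figure D3:**
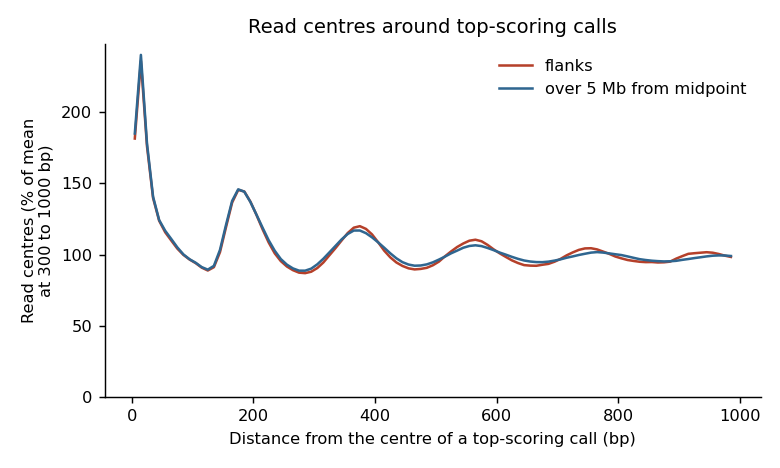
Read centres of replicate 1 around the centres of top calls of replicate 2, in percent of the profile's mean between 300 and 1000 bp, against the distance in bp with both sides pooled, in flanks (red) and distal regions (blue). The first neighbour at 175 bp reached 145% in the flanks and 146% in the distal regions, and the next at 375 bp reached 119.9% and 116.9%.

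Within the flanks, none of the 15 measures differed past the threshold between the inner and the outer part of the flanks, of equal width, with p-values adjusted over these 15. At an unadjusted p under 0.05 there were the share of overlapping calls and the protection ratio. The share of overlapping calls was 78.6% ± 0.323 nearer the midpoint and 77.7% ± 0.733 farther away (higher on 9 of 10 chromosomes, exact permutation p = 0.00781, adjusted p = 0.117). The protection ratio was 1.60 ± 0.0207 and 1.63 ± 0.0251 (lower on 9 of 10, exact permutation p = 0.0352, adjusted p = 0.264). Read density was 65.8 ± 6.39 and 65.3 ± 8.86 reads per kb.

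In steps of 0.5 Mb from the midpoint, the flanks lay between the core and the sequence at 7.5 to 8 Mb in several measures. Calls per kb were 10.03 ± 0.236 in the core within 0.5 Mb, 9.73 ± 0.239 in the first step of the flanks and 9.42 ± 0.118 in their last, and 9.08 ± 0.163 at 7.5 to 8 Mb. The share of overlapping calls went from 81.2% in the core to 79.4% and 77.6% at these steps of the flanks and to 75.7% at 7.5 to 8 Mb. Read density was 57.6 reads per kb in the core and 64.7 in the first step, stayed between 64.4 and 68.1 in the flanks, and was 72.9 at 7.5 to 8 Mb. The values did not change sharply at the outer edge of the flanks. Just outside it, at 3 to 3.5 Mb, there were 9.51 calls per kb, 78.0% overlap and 65.6 reads per kb. At 5.5 to 6 Mb, within the distal regions, these values were 9.37, 77.6% and 65.6. Top calls were 10.05% of calls in the core and 8.46% and 8.83% in the first and last steps of the flanks. They were 8.61% at 5.5 to 6 Mb and 9.04% at 7.5 to 8 Mb. The protection ratio was 1.55 in the core and 1.58 and 1.63 at these steps of the flanks. It was 1.65 ± 0.0581 at 5.5 to 6 Mb and 1.67 at 7.5 to 8 Mb. Values like those of the flanks were thus not particular to them. The steps are a description with no test.

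**Figure D4:**
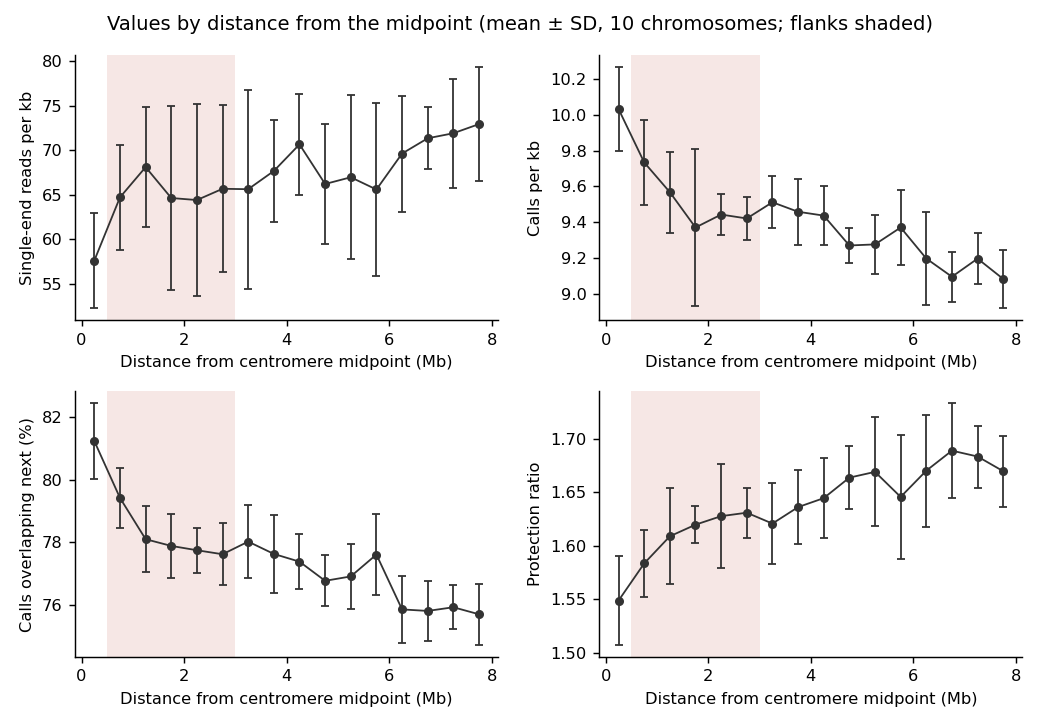
Mean and SD over 10 chromosomes of the measures in steps of 0.5 Mb of distance from the centromere midpoint, in Mb, with the flanks shaded. Calls per kb fell from 10.03 in the core to 9.42 in the last step of the flanks and 9.08 at 7.5 to 8 Mb, while read density was 57.6, 65.7 and 72.9 reads per kb. At 5.5 to 6 Mb, outside the flanks, the values were 9.37 calls and 65.6 reads per kb.

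Windows of 0.5 Mb showed how far single stretches departed from these means. Over 100 windows of the flanks, read density had a lowest value of 33.7, a median of 67.6 and a highest value of 82.1 reads per kb. The lowest was on chromosome 5 (chr5:9900000-10400000), where 11.2% of 1-kb windows had no read, the protection ratio was 1.51, the lowest of all windows, and 81.2% of calls overlapped the next. Next came 2 adjoining windows of chromosome 1, with 37.2 (chr1:15200000-15700000) and 38.0 reads per kb (chr1:14700000-15200000). The latter had no read in 39.4% of its 1-kb windows and 6.74 calls per kb, the fewest of all, where the median window had 9.51. It also had the lowest share of overlapping calls of the 100 windows, 74.9%. Low read density did not go with 1 level of overlap, since the next-lowest window of chromosome 5 (chr5:10400000-10900000) had 39.2 reads per kb and 77.5% of calls overlapping the next.

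The 5 longest stretches of the flanks without a call were all on chromosome 1, within the latter window. The longest, of 11359 bp (chr1:15077768-15089126), held 1 read. The others measured 9486 bp (chr1:15096888-15106373), 8201 bp (chr1:15106539-15114739), 7949 bp (chr1:15060764-15068712) and 7277 bp (chr1:14983364-14990640) and held 0 reads each. The stretches were chosen for their lack of calls, so only the read count of the single-end library is a separate observation. It came to 1 read in all, and sequence without unique alignments cannot be told apart from sequence without nucleosomes. At the other end, the bin with the most reads was on chromosome 6 (chr6:12990000-12999999), with 1640 reads, 2.22 times the median, and 122 calls. It was followed by a bin on chromosome 1 (chr1:19260000-19269999) with 1628 reads, 19.7% of them repeated, and by bins on chromosomes 3, 1 and 2 with 1438, 1433 and 1424 reads. Counting each position and strand once, these 5 bins still had 1.86 to 2.14 times the median.

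Regular runs of top calls were listed in the flanks alone, so their length was not set against the distal regions. The longest, with adjacent centres 150 to 230 bp apart, had 10 calls on chromosome 3 (chr3:16830823-16832524) at a mean spacing of 189 ± 27.1 bp (SD over distances). It held 188 reads, counted for each run as all 5' ends between its first and last centre. The next, with 9 calls, lay close by (chr3:16819953-16821564) at 201 ± 17.4 bp and 232 reads. Runs of 8 calls were found on chromosome 6 (chr6:12590931-12592149) at 174 ± 19.5 bp and with only 36 reads, on chromosome 8 (chr8:14019110-14020412) at 186 ± 14.5 bp and with 90 reads, and at 2 places near the start of chromosome 9. Those on chromosome 9 (chr9:10789-12027 and chr9:26645-27883) were alike in spacing, 177 ± 23.9 and 177 ± 23.6 bp, and in reads, 150 and 152. They lay close to 15855 bp apart, a distance at which call positions recurred at this chromosome end (below). The 2 runs may thus not be independent examples.

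The left end of chromosome 9 lies within its flank, since the midpoint is near that end. The short arm of chromosome 9 is known to carry 45S ribosomal RNA genes at its end in rice, although no gene was placed here. Its first 50 kb, singled out after these values were seen, were 1.04% of the flank length of the chromosome and held 679 calls, or 13.6 per kb. Call positions recurred there at 7928 bp. At this distance 338 pairs of calls were found, against a median of 34 at other distances, and the next distance at which pairs gathered was 15855 bp. Of the calls, 66.0% had another call 7928 bp on within 5 bp, and 63.6% had one a further period on, whereas the median at other distances was 15.5% and the highest 26.2%. The 50 kb held 135 top calls, 48.0% of those in the flanks of chromosome 9, and 5501 reads, or 110.0 per kb, of which 28.0% were repeated. Without them, the share of top calls was lower in the flank on 10 of 10 chromosomes (-1.23 percentage points), and the spacing of top calls was 179.2 bp in the flanks and 179.4 bp in the distal regions.

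The left and the right flanks differed on single chromosomes more than in the mean. Read density was 63.9 ± 9.10 reads per kb on the left and 67.2 ± 4.85 on the right. It was lowest in the left flank of chromosome 5, with 44.5, and highest in the left flank of chromosome 11, with 74.96. Call density was 9.45 ± 0.273 and 9.56 ± 0.1201 calls per kb, and the share of overlapping calls 78.2% ± 0.847 and 78.1% ± 0.455. These values were set side by side with no test.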

How the data were processed

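The authors aligned 36-bp single-end reads and read pairs with MAQ to the rice genome (TIGR release 5) at no more than 1 mismatch and discarded reads without a unique position. The deposited read positions pool the 2 technical replicates of replicate 1. For replicate 2, the authors removed long fragments, kept the middle of the others and called nucleosomes with nucleR, and the deposited score is nucleR's own value for each call. A duplicate list of calls was not used. The version of MAQ and nucleR's threshold are not given in the sources used here. No filter on repeated reads is stated. Reads may miss repeated sequence, which lowers the density there.

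Positions were analysed in numpy 2.4.6, numba 0.67.0, scipy 1.17.1 and pandas 2.3.3 under Python 3.11.15, and drawn with matplotlib 3.10.9. Each measure was computed per zone and chromosome, and scripts were tested on simulated data. All 1024 sign patterns were enumerated. One of the 15 measures, which took part in the adjustment of p-values, is not reported here. Spacing of reads was the highest point of same-strand distances, smoothed over 11 bp, between 121 and 280 bp. The first maximum had been planned, and the search was changed after simulated data showed it to be unstable. Named regions were the highest and lowest chromosome of each measure, the 5 bins with the most reads, the 5 longest stretches without a call and the 3 longest runs of top calls, with ties. The bounds of the flanks use positions only, but the choice to study these regions, the measures and the lists was made with earlier results of these data known. Alternatives were another flank width, distal bound, midpoint, smoothing, score threshold and bin filter, 1 flank alone, and each chromosome left out.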

Additional observations from a re-analysis of the deposited data

How the results depend on the processing

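Of 316 values under other settings for 15 results, 284 kept their direction and side of the threshold and 4 were exactly 0, and of 22 under settings chosen after seeing the data, 13 did. These counts are not of independent checks. Values with 1 chromosome left out share most of their data. Leaving out chromosome 9 was entered more than once among the 316, with identical values. Some settings could not change a measure, such as the 50% of calls with the highest score for spacing of top calls and array swing. The cause of the changes was not tested. No paired analysis was possible because each form of data has 1 library, which leaves no samples to pair. The pairs of the main test are chromosomes, not samples.

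With bins at 0.8 to 1.2 times the median, the difference was 0.292 for repeated reads (past the threshold), -0.0909 for windows without reads, -1.2 bp for spacing of reads, -0.0273 for windows without calls, 0.00142 for score, 0.1 bp for spacing of top calls and 3.91 for array swing. Without bins under 0.5 times the median it was -0.0277 for windows without reads, -0.0176 for windows without calls and -0.00350 for score (past the threshold). With flanks of 0.5 to 2 Mb it was -0.7 bp for spacing of reads, 0.15 bp for spacing of top calls, 5.37 for array swing and -0.00352 for score (past the threshold). With distal regions over 8 Mb it was -0.0959 for repeated reads and -0.00583 for score (past the threshold). With midpoints 0.5 Mb to the right it was -0.00398 for repeated reads and 2.79 for array swing, and with midpoints to the left -2.8 bp for spacing of top calls (past the threshold). The left flank alone gave -0.0256 for repeated reads, 0.0414 for log2 call density and -0.0354 for reads at calls, the latter 2 no longer past the threshold, and the right alone -0.0306 for windows without reads and 4.21 for array swing. The 50% of calls with the highest score gave 0.0274 for log2 call density, -0.00769 for score (past the threshold) and 0.305 for overlap, with call density and overlap no longer past it. Calls that overlap no other gave -0.19 for log2 call density and 4.56 for windows without calls (both past the threshold). Smoothing gave 0.9 bp for protected length (past the threshold), the top 25% of calls 0.5 bp for their spacing, own-chromosome thresholds 0.234 and leaving out 50 kb of chromosome 9 3.48 for array swing.

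With each chromosome left out in turn, differences ran from -0.20 to -0.15 for log2 read density, -0.00787 to 0.0476 for repeated reads, 0.390 to 1.28 for windows without reads, 0 to 0.444 bp for protected length, -0.0798 to -0.0717 for protection ratio, 0 to 1.11 bp for spacing of reads, 0.0471 to 0.0539 for log2 call density, 0.0746 to 0.261 for windows without calls, -0.00334 to -0.00207 for score, -1.35 to -1.11 for top calls, 2.09 to 2.24 for overlap, -1.72 to -0.0556 bp for spacing of top calls, -0.0513 to -0.0434 for reads at calls and -3.25 to -0.226 for array swing. The adjusted p of the score ran from 0.0220 to 0.117.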
